A study of Mus musculus and synthetic construct with 9 samples.

Results

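The 372 sequences described here are synthetic haplotypes, chosen by name as those in which the tested SNP sat on an alternate background. This background is taken here to differ from the standard one at neighbouring SNPs. They formed 186 allele pairs from 176 SNPs, of the 13628 sequences and 6628 SNPs in the library. Each was set beside the 352 standard sequences of the same SNPs, which held the reference or the alternate allele on the standard background. A SNP with 1 alternate background therefore gave 4 sequences, the reference and the alternate allele on each background. There were 167 such SNPs, 8 with 2 alternate backgrounds and 1, rs35282797, with 3. The names do not say which neighbour differed, nor what the number at the end of a name stood for. Backgrounds are therefore called here by that number only where a SNP had several. Positions were given for 103 of 176 SNPs. No neighbour within the insert was listed for several SNPs described below, rs12033469, rs35127357, rs4689398 and rs62033403 among them.

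The library held human inserts of 200 bp upstream of a minimal promoter and GFP, each tagged by barcodes of 20 bp in the GFP mRNA, and was transfected into MIN6, a mouse insulinoma line used as a model of the pancreatic β cell. RNA was collected 30 h after transfection from cells in standard culture, from cells kept from 6 h onward in 0.025% DMSO, and from cells kept over the same interval in 250 nM thapsigargin (Tg) in DMSO. Each condition had 5 RNA libraries, and each plasmid batch had 5 plasmid libraries. The RNA libraries came from transfections on separate days. One batch served standard culture, and a second batch, grown from the first, served both DMSO and Tg, so the conditions that share it share its plasmid counts. All conditions share the cell line, the minimal promoter and the episomal plasmid.

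A cis-regulatory sequence raises transcription where proteins bind its short motifs, and a single base can make or break a motif. Neighbouring SNPs in strong linkage are inherited together, so association studies cannot separate their alleles, whereas a reporter library can carry every combination. Thapsigargin blocks the calcium pump of the endoplasmic reticulum and so causes ER stress, to which β cells are prone because of their load of insulin folding.

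Short reference stretches on the plus strand of hg19 are shown for the 2 SNPs among those whose haplotypes carried the results for which the study's motif tables held a continuous stretch. The capital marks the SNP. For rs12073009, at position 241186349 of chromosome 1 in the RGS7 signal, the stretch spans chr1:241186336-241186361. A neighbour, rs12074106, lies 9 bp to the right and inside the stretch, and rs10802922 lies 78 bp to the right. For rs35127357, at position 101081864 of chromosome 1, the stretch spans chr1:101081849-101081878.
rs12073009 reference: ataatgattaaatAggtaaaattgtg
rs12073009 alternate: ataatgattaaatGggtaaaattgtg
rs35127357 reference: gagaagccaaacagaGagtgtgcttgctac
rs35127357 alternate: gagaagccaaacagaAagtgtgcttgctac

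The libraries held 19851799 to 44899256 RNA counts and 23009482 to 36129587 plasmid counts. Alternate-background sequences took 2.66% to 2.81% of the plasmid counts and 1.56% to 1.95% of the RNA counts. Counts are reads without molecular identifiers, so the totals describe sequencing depth and not independent molecules. The median alternate-background sequence had a mean of 1917 plasmid counts per library in the first batch and 1993 in the second. The 4 sequences with under 10 were not tested, which left 368 of 372. Allelic and background effects were examined for the allele pairs whose 4 sequences all averaged 100 or more plasmid counts, 176 of 186 in the first batch and 174 in the second.

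Most haplotypes were not called active. A sequence was called MPRA active when its RNA counts exceeded its plasmid counts at an FDR of 1% in edgeR's quasi-likelihood test, fitted on the whole library. In standard culture 72 of 368 alternate-background sequences were active (19.6%), against 18.6% of all sequences tested. In DMSO 86 were active (23.4%), against 19.8%, and in Tg 49 were active (13.3%), against 12.8%. Fewer RNA than plasmid counts were found for 31, 25 and 6 of them in the same order, where 9.78%, 8.18% and 2.55% of all sequences were lower. Of their standard partners, 55, 77 and 44 of 346 were active in the same order. These shares lay near those of the whole library. They rested on the scaling, since libraries scaled by total counts lowered every log2 RNA/plasmid ratio by 0.82 (standard culture), 0.72 (DMSO) or 0.80 (Tg) and left 6, 14 and 7 active sequences. Differences between sequences within a library do not move with this scaling, but the active calls, the requirement of an active sequence in a quartet and the comparison of Tg with DMSO do.

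Activity of all 4 haplotypes and activity of a single haplotype were both seen. Among the 176 allele pairs compared in standard culture, all 4 sequences were inactive in 126, all 4 were active in 19 and exactly 1 was active in 18. In DMSO these numbers were 114, 24 and 15 of 174, and in Tg they were 135, 13 and 15 of 174. When each alternate-background sequence was set beside the same allele on the standard background, both were active in 46 of 356 such couples in standard culture, 26 were active only on the alternate background and 9 only on the standard background. In DMSO the corresponding numbers were 60, 26 and 18 of 351, and in Tg 35, 14 and 10 of 351. An active call beside an inactive call does not show a difference by itself, so the difference was tested directly.

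The effect of the background was the log2 RNA/plasmid ratio on the alternate background minus that on the standard background for the same allele, taken within each RNA library and tested with limma at an FDR of 10% over the allele pairs with at least 1 active sequence. In standard culture 22 of 100 such effects passed (22%). The DMSO libraries gave 40 of 120 (33.3%), and the Tg libraries 16 of 78 (20.5%). All these tests are of the sequences described here, so the shares have no wider background. A pair that entered through its single active sequence was more likely to show a difference, and the counts are descriptions for that reason. When the spread of the plasmid libraries was added to the error, a setting chosen after seeing the data, 16, 32 and 16 passed. Without the requirement of an active sequence, 22, 31 and 7 passed.

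The background more often moved the alternate allele than the reference allele among the effects that passed. The effect was called for 15 alternate and 7 reference alleles of cells in standard culture. With DMSO it was called for 24 and 16, and with Tg for 11 and 5, and the difference between these counts was not tested. Both alleles of a pair were called in 3, 9 and 3 pairs, and their directions were alike in 3, 8 and 2. Most effects were small. The median size over all pairs tested was 0.05 log2 units for the reference allele and 0.06 for the alternate allele in standard culture. With DMSO the medians were 0.09 and 0.11, and with Tg 0.07 and 0.10.

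Allelic effects on the alternate background were called for 17 of 50 pairs (standard culture), 22 of 60 (DMSO) and 11 of 39 (Tg). Over all allele pairs of the library on either background, 40.1%, 42% and 35.1% were called in the same fits, where an ordinary pair had to be active itself. On the standard background the same SNPs gave 14 of 50, 17 of 59 and 15 of 38, where all SNPs of the library gave 40.3%, 42.2% and 35.3%. The allele changed activity on both backgrounds in 8, 10 and 7 pairs, in the same direction in 6, 9 and 7. Across the pairs tested, log2 ratios on the 2 backgrounds correlated with an r of 0.63 over 100 sequences in standard culture. The r was 0.75 over 120 with DMSO and 0.58 over 78 with Tg, and the coefficients were 0.88, 0.89 and 0.84 once the sequences of rs7500590 were left out. Allelic effects on the 2 backgrounds correlated with an r of -0.04 (50 pairs), 0.16 (60) and 0.09 (39), and with 0.17, 0.36 and 0.36 without rs7500590. The points share libraries and plasmid counts, and the coefficients are descriptions only.

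An allelic effect that differs between backgrounds is a departure from additivity of allele and background on the log2 scale. The difference passed limma's test at an FDR of 10% for 6 of 50 pairs (12%) in standard culture, and for 11 of 56 with all library numbers of the table. It passed for 11 of 60 with DMSO (18.3%) and for 7 of 39 with Tg (17.9%). With the plasmid error included 6, 10 and 7 passed. Without the requirement of an active sequence, the tests covered 176, 174 and 174 pairs, and 4, 16 and 5 passed. With the requirement, exactly 1 of the 4 sequences was active in 4 of the 6, 6 of the 11 and 6 of the 7. The same held for 18, 15 and 15 of the 50, 60 and 39 pairs tested. Pairs that entered through a single active sequence were more likely to show a difference, so these counts are descriptions only. In all, 13 pairs passed in at least 1 condition, and 3 of them, those of rs7500590 and rs12033469 among them, passed in all 3 conditions with the same direction each time. Each of these had a single high sequence. The second plasmid batch was grown from the first, so agreement between conditions does not replicate a sequence with its barcodes.

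The highest haplotype was that of rs7500590, whose alternate allele was active only on the alternate background. In standard culture this sequence had log2 ratios of 3.42, 3.47, 3.62, 3.47 and 3.63 in the 5 RNA libraries, and in DMSO 3.34, 3.16, 3.24, 3.42 and 3.47. In Tg it had 3.49, 3.53, 3.58, 3.77 and 3.66. The other 3 sequences of the quartet lay between -0.20 and 0.25, between 0.04 and 0.50 and between -0.56 and 0.32 in the same order of conditions, so the high sequence did not overlap them in any library. It was 11.4-fold, 8.13-fold and 11.8-fold above the same allele on the standard background. The reference allele differed between backgrounds by 1.03-fold, 1.00-fold and 1.09-fold.

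The allelic effect of rs7500590 on the alternate background was 3.49 ± 0.18 (standard culture), 3.02 ± 0.10 (DMSO) and 3.61 ± 0.31 (Tg), as mean ± SD over 5 libraries. Its difference from the effect on the standard background was 3.55 ± 0.29, 3.03 ± 0.17 and 3.68 ± 0.41 (limma adjusted p = 1.29e-35, 2.17e-08 and 2.1e-07). Here and elsewhere limma moderates the variance over all pairs of a fit. Its p-values therefore do not measure the spread over 5 libraries alone, and their sizes are not compared between conditions. Here and at the SNPs below with a single high sequence, that sequence by itself met the requirement of an active one. The test then contrasts it with the rest of the quartet, so such p-values are descriptions only. The high sequence had a mean of 1077 plasmid counts and the lowest sequence of the quartet 468.8 in the first batch. No position for this SNP was given in the sources used here.

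At rs12033469 the pattern was turned to the other allele. This C/T SNP lies at position 236465171 of chromosome 1 (hg19), between ERO1B, whose product oxidises proteins in the endoplasmic reticulum and aids insulin folding, and EDARADD, an adaptor of ectodysplasin signalling. The reference allele on the alternate background had log2 ratios of 1.27, 1.26, 1.33, 1.32 and 1.35 in standard culture and 1.07, 1.14, 1.08, 0.89 and 1.07 in DMSO. In Tg it had 1.28, 1.19, 1.23, 1.27 and 1.37. Its 3 companions stayed between -0.09 and 0.14, between -0.24 and 0.17 and between -0.19 and 0.25 in these conditions, with no overlap.

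The alternate allele of rs12033469 on the alternate background was therefore 2.35-fold, 1.96-fold and 2.50-fold below the reference allele in standard culture, DMSO and Tg. On the standard background the allelic effect was -0.05, -0.10 and -0.16, and the last of these, in Tg, also passed limma's test. The background effect on the alternate allele passed in standard culture (0.09) and DMSO (0.21). The difference between the effects was -1.18 ± 0.07, -0.87 ± 0.27 and -1.17 ± 0.17 (SD, n = 5; limma adjusted p = 5.87e-21, 0.00101 and 1.33e-05). The high sequence by itself brought this quartet into the test, so these p-values are descriptions too.

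At rs1824872 and rs12073009 the alternate allele was active on the standard background and lower on an alternate one. The alternate allele of rs1824872 on the standard background had log2 ratios of 0.78, 0.79, 0.70, 0.62 and 0.80 in standard culture and 0.64, 0.54, 0.59, 0.81 and 0.73 in DMSO. In Tg it had 0.77, 0.42, 0.52, 0.65 and 0.63. The remaining 3 sequences ranged from -0.14 to 0.16, -0.07 to 0.22 and -0.31 to 0.41, so the groups were nearly adjoining in Tg.

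The same allele of rs1824872 on the alternate background was 1.64-fold, 1.52-fold and 1.27-fold lower in the 3 conditions. The allelic effect fell by 0.73 ± 0.15 and 0.55 ± 0.24 from the standard to the alternate background in standard culture and DMSO (limma adjusted p = 2.46e-13 and 0.00608, n = 5). In Tg the background effect on the alternate allele passed at an adjusted p of 0.0482 in limma, but not when all SNPs were tested (adjusted p = 0.16) or without Tg replicate 1, 4 or 5 (adjusted p = 0.153, 0.151 and 0.117). There the difference between allelic effects did not pass.

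For rs12073009, whose sequences are given above, 2 alternate backgrounds were built. None of its 6 sequences was active in standard culture, where their mean log2 ratios ran from -0.31 to 0.06. In DMSO its alternate allele on the standard background had log2 ratios of 0.56, 0.59, 0.68, 0.34 and 0.59, and in Tg 0.64, 0.47, 0.26, 0.56 and 0.63. The reference allele there averaged -0.23 and -0.18. On background 1 the alternate allele averaged -0.10 ± 0.18 in DMSO and -0.28 ± 0.21 in Tg, and on background 2 it averaged 0.16 ± 0.17 and -0.27 ± 0.18 (SD, n = 5). In both conditions the lowest library of the active sequence exceeded the highest of the alternate allele on either altered background. The reference allele on background 2 overlapped the active sequence in Tg, reaching 0.49. On background 2 in DMSO the alternate allele was still 0.35 above the reference allele, past limma's test.

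The change of background lowered the alternate allele of rs12073009 by 0.65 and 0.40 log2 units in DMSO on backgrounds 1 and 2 and by 0.79 and 0.78 in Tg, as -0.65 ± 0.17, -0.40 ± 0.07, -0.79 ± 0.21 and -0.78 ± 0.21 (limma adjusted p = 0.00019, 0.000318, 0.00154 and 0.00154). The differences between allelic effects were -0.86 ± 0.40 and -0.44 ± 0.23 in DMSO and -0.72 ± 0.27 and -0.92 ± 0.39 in Tg, past the test for both backgrounds. Both comparisons share the standard sequences. In DMSO and Tg each quartet entered the tests through its 1 active sequence, which the differences then contrast, so these p-values are descriptions only. The neighbour rs12074106 was itself tested in sequences centred 9 bp away, with 1 alternate background numbered 2. All 4 were inactive in every condition, with mean log2 ratios from -0.66 to -0.05, but the names do not say which of them held the alternate allele of rs12073009.

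The mean allelic effect had opposite signs on the 2 backgrounds at rs4689398, a C/T SNP at position 6302199 of chromosome 4 in the signal of WFS1, whose gene encodes wolframin, an endoplasmic reticulum protein mutated in Wolfram syndrome. On the standard background in DMSO the reference allele had log2 ratios of -0.12, 0.04, 0.03, -0.41 and 0.00 and the alternate allele 0.45, 0.21, 0.43, 0.17 and 0.18. On the alternate background the reference allele had 0.43, 0.22, 0.22, 0.12 and 0.35 and the alternate allele 0.31, 0.16, 0.15, 0.04 and -0.24. The alternate allele was thus higher on the standard background without overlap, and lower in the mean, with overlap, on the other. The allelic effect on the standard background passed the test in DMSO and Tg (limma adjusted p = 0.00375 and 0.0039), and that on the alternate background passed in neither (-0.18 and -0.11, adjusted p = 0.11 and 0.365).

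The allelic effect of rs4689398 changed by -0.57 ± 0.22 with DMSO and -0.48 ± 0.29 with Tg (SD, n = 5; limma adjusted p = 0.00456 and 0.0172), and in Tg its adjusted p was 0.136 when all SNPs were tested. In standard culture all 4 sequences were inactive, with means from 0.05 to 0.13. At rs7571967, in the TMEM18 signal at position 646839 of chromosome 2, the alternate allele was higher on the standard background (0.15) and lower on the alternate background (-0.10) in standard culture, a difference of -0.25 ± 0.18 (limma adjusted p = 0.00391). In Tg the difference was -0.30 ± 0.18 (adjusted p = 0.0409), with no active sequence in DMSO. This SNP is outside the rule for named SNPs and was picked after its values were seen.

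Of the background effects called different between DMSO and Tg, that on the alternate allele of rs35127357 changed most. In DMSO this allele on the alternate background had log2 ratios of 0.61, 0.85, 0.61, 0.65 and 0.84, against -0.04, 0.12, -0.09, 0.07 and 0.31 for the same allele on the standard background. In Tg it had -0.02, 0.05, 0.09, 0.12 and 0.06, against 0.07, 0.15, 0.07, 0.12 and 0.02. The pair did not overlap in DMSO and overlapped in Tg. The background effect was 0.64 ± 0.09 in DMSO and -0.02 ± 0.06 in Tg, and its change from DMSO to Tg was -0.66 (SE 0.06; limma adjusted p = 3.79e-05). In standard culture it was 0.13 ± 0.13, which passed the limma test (adjusted p = 0.0772) but not with the plasmid error included (adjusted p = 0.16).

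Among 126 background effects tested for a change between DMSO and Tg, 5 passed at an FDR of 10% (3.97%). Besides rs35127357 they were the alternate alleles of rs7500590, whose effect went from 3.02 to 3.56, rs6582145 (-0.29 to 0.12), rs12073009 on background 2 (-0.40 to -0.78) and rs330247 (0.07 to -0.54). The count was 1 when each RNA library was divided by the plasmid library of its own number, 2 with the library number as a replicate block, and 3 with the second sequencing run alone or without DMSO replicate 1, 2, 4 or 5 or Tg replicate 1 or 2. The study's methods call the DMSO and Tg experiments paired, but the labels do not say which libraries belong together. With the block, rs35127357 and rs7500590 passed (limma adjusted p = 0.00406 and 0.0069), whereas rs6582145, rs12073009 and rs330247 did not (adjusted p = 0.11, 0.185 and 0.193). Libraries of the same number did not deviate together, with correlations of their deviations from the group means between -0.03 and 0.02 across 12847 sequences. The rs330247 quartet rested on as few as 160.8 plasmid counts.

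At the SLC35D3 signal the neighbouring SNPs rs6937795 and rs6917676, 15 bp apart on chromosome 6, were tested in all 4 combinations. The quartet is named for rs6937795, an A/C SNP at position 137291281, and the listed neighbour within the insert is rs6917676. In DMSO the reference allele of rs6937795 had log2 ratios of 0.46, 0.64, 0.57, 0.48 and 0.52 on the standard background and 0.17, 0.39, 0.40, 0.39 and 0.29 on the alternate background. The alternate allele had 0.51, 0.58, 0.43, 0.49 and 0.50 on the standard background and 0.27, 0.21, 0.31, 0.22 and 0.31 on the alternate background. For both alleles every library of the standard background was above every library of the alternate background.

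The background effect at rs6937795 was -0.21 ± 0.08 for the reference allele and -0.24 ± 0.10 for the alternate allele with DMSO (SD, n = 5; limma adjusted p = 0.0157 and 0.0114). The allele of rs6937795 itself did not pass on either background, nor did the difference between the effects. In Tg the background effects were -0.04 ± 0.10 and -0.02 ± 0.11. Their changes from DMSO to Tg, 0.17 (SE 0.07) and 0.22 (SE 0.07), did not pass (limma adjusted p = 0.297 and 0.19). In standard culture the 4 means lay between 0.14 and 0.19.

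Allele and background effects were close to additive at other loci. At rs62033403, an A/G SNP at position 53822237 of chromosome 16 in an intron of FTO, which encodes an RNA demethylase, both alternate-background sequences were among the 5 most active of the set in standard culture and Tg. In standard culture the reference allele averaged 2.10 ± 0.14 on the standard background and 2.33 ± 0.14 on the alternate background, and the alternate allele 2.37 ± 0.17 and 2.59 ± 0.12 (SD, n = 5). The allelic effect was 0.27 ± 0.04 on the standard background and 0.26 ± 0.04 on the alternate background in standard culture. With DMSO it was 0.25 ± 0.10 and 0.30 ± 0.07, and with Tg 0.26 ± 0.05 and 0.30 ± 0.08, each past the limma test. Libraries of the 4 sequences overlapped in raw ratio, but all 5 libraries had the same sign of each effect in standard culture.

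The background effects at rs62033403 were 0.23 and 0.22 log2 units in standard culture for the reference and alternate allele, and 0.20 and 0.24 in Tg. In DMSO the effect on the reference allele, 0.13, did not pass with the plasmid error included (limma adjusted p = 0.219). The difference between allelic effects was -0.01, 0.05 and 0.04 in the 3 conditions, near no departure from additivity, although a test that misses its threshold does not show the effects to be equal.

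Several SNPs carried an allelic effect that was called on both backgrounds. In DMSO the alternate allele of rs4881099 was 0.56 ± 0.11 higher on the standard and 0.66 ± 0.11 higher on the alternate background, and that of rs28853968 was 0.58 ± 0.10 and 0.66 ± 0.09 higher (SD, n = 5). At rs9694326 no sequence was active in standard culture or DMSO, and in Tg the reference allele was active on both backgrounds, with means of 0.30 and 0.46, while the alternate allele stayed at -0.14 and -0.11. Its allelic effects in Tg were -0.43 ± 0.07 and -0.57 ± 0.16 (SD, n = 5; limma adjusted p = 0.000356 and 0.000534).

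At rs1515555 and rs1463768 background effects passed and allelic effects did not. The alternate background lowered the alternate allele of rs1515555 by 0.15, 0.25 and 0.30 log2 units in standard culture, DMSO and Tg, as -0.15 ± 0.06, -0.25 ± 0.17 and -0.30 ± 0.19. In DMSO it raised both alleles of rs1463768, by 0.24 ± 0.16 and 0.29 ± 0.21, where neither allele was active on the standard background and both were active on the alternate. In rs11879091 all 4 sequences were active in DMSO, and the allele lowered activity on the alternate background (-0.41 ± 0.23) but not detectably on the standard one (0.03), a difference of -0.43 ± 0.26 (limma adjusted p = 0.0151). A difference of 0.55 ± 0.30 at rs918433 in DMSO did not pass with the plasmid error included (adjusted p = 0.132), and its scarcest sequence had 120.4 plasmid counts. The allelic effects of rs918433 in DMSO were -0.30 on the standard and 0.26 on the alternate background, both past limma's test without the plasmid error. At rs551633086 in standard culture they were -0.10 and 0.12 in that order, both past the same test, with a difference of 0.22.

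At rs6582145 the alternate allele on the standard background had log2 ratios of 0.52, 0.66, 0.40, 0.42 and 0.42 in DMSO, against 0.24, 0.40, 0.17, -0.05 and 0.20 on the alternate background. The groups touched at 0.40, and within libraries the effect was -0.29 ± 0.10. In Tg all 4 means lay between -0.13 and 0.01.

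A further high sequence was left out of the background tests because another sequence of its quartet had too few plasmid counts. The reference allele of rs2425847, at position 44907927 of chromosome 20 in an intron of the cadherin gene CDH22, had log2 ratios of 1.78, 1.67, 1.78, 1.98 and 1.80 in standard culture on the alternate background. On the standard background it had 0.22, 0.28, 0.31, 0.33 and 0.07. The means in DMSO were 2.13 and 0.38 and in Tg 1.97 and 0.11, so the background that went with higher activity was the same in each condition. The alternate allele on the alternate background averaged 58.6 plasmid counts in the first batch and 30.6 in the second, under the minimum of 100, and no p-value is given.

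Tg changed few of the haplotypes. Against DMSO, 5 of 368 alternate-background sequences were higher in Tg (1.36%) and 20 were lower (5.43%) at an FDR of 1% in edgeR, beside 2.04% and 4.17% of all sequences tested. Of these 25 sequences, from 18 SNPs, 14 had a standard partner that changed in the same direction and 23 had a partner of the same sign. The exceptions in sign were the alternate alleles of rs35127357, -0.64 on the alternate and 0.02 on the standard background, and rs7500590, 0.30 and -0.24. With total-count scaling 3 were higher and 38 lower, and DESeq2 called 8 higher.

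Alternate-background sequences fell at 14 loci, at 4 of which all 4 haplotypes fell and at 5 of which a single haplotype did. Of the 20 falling sequences, 11 had a standard partner that also fell and 9 had one that was not called. At rs34274195 the log2 change in Tg was -0.81 and -0.85 for the reference and alternate allele on the alternate background and -0.77 and -0.79 on the standard background. At rs551633086 the changes were -0.72 and -0.84 on the alternate and -0.72 and -0.93 on the standard background. At rs1589960, at position 74090633 of chromosome 3 between PDZRN3-AS1 and CNTN3, they were -0.79 and -0.70 on the alternate and -0.70 and -0.67 on the standard background. All 4 sequences of these 3 loci remained active in Tg.

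The largest fall, -1.28, was that of the alternate allele of rs330247 on its alternate background, at position 3572893 of chromosome 3, and its partner fell by 0.66. The rises were 0.43 for the reference allele of rs9694326, 0.30 for the alternate allele of rs7500590, 0.29 for both alleles of rs62033403 and 0.24 for the reference allele of rs12033469, all on the alternate background. The last of these did not pass in edgeR without DMSO replicate 4, DMSO replicate 5 or Tg replicate 5.

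Lists of T2D SNPs and caQTL SNPs with allelic skew had been drawn up on these same libraries, so a count over them is no independent evidence. The caQTL SNPs are those associated with chromatin accessibility in islets. Among the 5 T2D SNPs that had an alternate background, 3, 3 and 4 were tested (standard culture, DMSO and Tg), and the allelic effects of 1, 2 and 3 of them differed between backgrounds. Among the 16 caQTL SNPs, 15, 15 and 14 were tested and 2, 2 and 0 differed. Over all allele pairs tested, 12%, 18.3% and 17.9% differed in the same order of conditions. The lists were not tested against each other or against these shares.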

How the data were processed

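The authors deposited counts of barcode reads summed per sequence and library, after barcodes that mapped to several sequences had been discarded, and named DESeq2 in their processing notes. No source used here names the program that counted barcodes. Members and lists were chosen with earlier results of these data known. Columns of standard culture exceed the study's 5 RNA libraries. The set used, plasmid numbers 1 to 5 and RNA numbers 2 to 6, was the only one of 882 that matched mean counts of 1117 SNPs in the study's supplement. Replicates 1 to 5 of standard culture are RNA numbers 2 to 6 in that order. Runs of DMSO and Tg libraries were summed.

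Activity and Tg against DMSO used edgeR 4.0.16 (R 4.3.3) with TMM scaling and robust dispersion, over sequences with at least 10 mean plasmid counts, at an FDR of 1%. Effects used limma 3.58.1 on differences of log2((RNA + 1)/(mean plasmid + 1)) within RNA libraries, over allele pairs with at least 100 plasmid counts, at an FDR of 10%. All are two-sided with Benjamini-Hochberg adjustment. Mean plasmid is shared by the RNA libraries, so its error is not in this test, and an added fit of RNA against plasmid libraries includes it. DESeq2 1.42.0 was an alternative. Tools were tested on simulated counts. Tables were joined in Python 3.11.15.

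SNPs named are rs6937795, the 10 largest background effects, allelic effects on the alternate background and differences that passed with the same sign in every library, the 5 most active sequences of each condition and the 5 largest rises and falls in Tg, with exceptions stated, and 1 SNP that this rule names is not reported here. Positions and loci are those of the study, for 103 of 176 SNPs. Alternatives changed scaling, tool, filters, pseudocount, plasmid values, run, block and libraries.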

Additional observations from a re-analysis of the deposited data

Results flagged for a closer look

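In 120 groups of 5 libraries checked for a value far from the rest, 4 had one, where chance alone gives about 1 in 20. The gap of the outlying library over the range was 0.729 for the allelic effect of rs1824872 on the standard background in standard culture, with 0.62 against 0.73 to 0.78. It was 0.837 for the difference between the allelic effects of rs1824872 in DMSO, with -0.98 against -0.47 to -0.38. It was 0.788 for the background effect on the alternate allele of rs6582145 in DMSO, with -0.47 against -0.27 to -0.22. It was 0.734 for the allelic effect of rs7500590 on the alternate background in Tg, with 4.14 against 3.37 to 3.58. All 5 libraries of each had the sign of the mean.

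The background effect changed from DMSO to Tg by limma's test for 5 alternate alleles. The change was -0.66 for rs35127357 (SE 0.06, adjusted p = 3.79e-05), 0.54 for rs7500590 (SE 0.09, adjusted p = 0.00696) and 0.41 for rs6582145 (SE 0.09, adjusted p = 0.0211). It was -0.38 for rs12073009 on background 2 (SE 0.10, adjusted p = 0.0719) and -0.60 for rs330247 (SE 0.16, adjusted p = 0.0867). With the library number as a replicate block, only the changes of rs35127357 and rs7500590 passed.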

How the results depend on the processing

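Of 2290 comparisons of 168 single results with their alternatives, 5 turned direction and 191 lost the threshold. The 5 reversals came with total-count scaling, for the RNA over plasmid ratio of the reference allele of rs1589960 (-0.43 in standard culture and -0.45 in Tg), of rs34274195 (reference -0.29 and alternate -0.18 in standard culture) and of the reference allele of rs9694326 (-0.32 in Tg), all on the alternate background. This scaling gave 6, 14 and 7 active sequences, and 3 higher and 38 lower in Tg, where DESeq2 gave 8 higher. Background effects in standard culture numbered 13 with the plasmid library of the same number and 14 to 23 with a library left out, with 14 without replicate 1. Differences between allelic effects in standard culture numbered 11 of 56 pairs with all library numbers. Tests of all SNPs in Tg gave 5 allelic and 7 background effects. Background effects that differed between Tg and DMSO numbered 1 with the same-number plasmid, 2 with a replicate block and 3 with run 2 only. They numbered 3 to 6 with a library left out, and 3 without DMSO replicate 1, 2, 4 or 5 or Tg replicate 1 or 2. The labels do not say that DMSO and Tg libraries of a number belong together, and the block ended 3 of 16 single calls, those of rs6582145, rs12073009 and rs330247. The cause of these changes was not tested. The median SD between libraries of a difference between allelic effects was 0.13, 0.18 and 0.22 log2 units in standard culture, DMSO and Tg, which limits the smaller effects.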

Other observations

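For 7 couples of SNPs 1 to 9 bp apart, the standard reference sequences were nearly the same insert shifted by that distance. All were inactive. Their log2 RNA/plasmid ratios differed by a median of 0.02 (standard culture), 0.12 (DMSO) and 0.09 (Tg), and at most by 0.10, 0.22 and 0.19. Among the SNPs with several alternate backgrounds, active sequences were found at rs12073009 and rs10802924, both in the RGS7 signal.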
